A study of Homo sapiens with 17 samples.

Results

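The metallothionein genes MT2A, MT1A, MT1E, MT1F, MT1G, MT1M and MT1X were followed in YB5 colon cancer cells exposed to toyocamycin. They were taken by gene symbol, as 7 of the 19141 genes in the count table, and all 7 were found in it. YB5 cells were made from SW48, a human colon cancer line, and hold a GFP reporter whose CMV promoter is methylated and does not express. The cells of every group were YB5, and they received either DMSO, the vehicle, or 250 nM toyocamycin, an adenosine analog. RNA with a polyA tail was sequenced in 17 libraries. Of the 8 DMSO libraries, 2 were of the 2 h time point, 3 of 72 h, and 1 each of 10, 24 and 48 h. Of the 9 toyocamycin libraries, 2 were of 2 h, 2 of 10 h, 3 of 72 h, and 1 each of 24 and 48 h. The last time is 72 h in the sample labels and is 96 h in the published account, and the labelled time is used here.

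Metallothioneins are small cysteine-rich proteins that bind zinc and copper and also take up cadmium and other heavy metals. Their genes are known for strong induction by metals. MTF1, a zinc-sensing transcription factor, binds short metal response elements in their promoters, and it also drives SLC30A1, which encodes the zinc exporter of the cell surface. Oxidants and glucocorticoids are further known inducers. The mRNAs are short and most copies of the family lie side by side, so the copies can be compared within 1 locus.

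The 7 genes lie on chromosome 16 of GRCh38, from 56608584 to 56684196, a stretch of 75613 bases. From the start of this stretch the order is MT2A (56608584-56609497), MT1E (56625475-56627112), MT1M (56632659-56633981), MT1A (56638666-56640087), MT1F (56657731-56660698), MT1G (56666730-56668065) and MT1X (56682470-56684196). MT1G is on the minus strand and the other 6 are on the plus strand. Each has 3 exons, and their spans run from 914 to 2968 bases, against a median of 28501 bases and 8 exons over 19001 coding genes. The mRNA lengths used here are 396 to 425 bases, apart from 704 bases for MT1E, whose mRNA is 398 bases with a shorter first exon. The coding sequences are 183 bases long, or 186 bases for MT1G, and the 21 pairs share 88.5% to 94.5% of their aligned bases, with a median of 91.8%. In spite of this likeness, no stretch of 150 bases, the read length, was shared between an mRNA of 6 of the genes and any other transcript. For MT1X, 6.7% of such stretches were shared, and 165 of its 404 exon bases also belong to a long noncoding RNA on the same strand, so its counts are the least certain.

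Promoters are shown because the genes fell together and because the metal response element is the feature they are known for. Of the 7 genes, MT2A and MT1X were matched in the RefSeq promoter table (GRCh38.p14). Each sequence holds the 250 bases before the gene start, plus strand, 5′ to 3′, chr16:56608334-56608583 for MT2A and chr16:56682220-56682469 for MT1X. Capitals mark the core of the metal response element, TGCACNC or TGCGCNC, read on either strand.
MT2A: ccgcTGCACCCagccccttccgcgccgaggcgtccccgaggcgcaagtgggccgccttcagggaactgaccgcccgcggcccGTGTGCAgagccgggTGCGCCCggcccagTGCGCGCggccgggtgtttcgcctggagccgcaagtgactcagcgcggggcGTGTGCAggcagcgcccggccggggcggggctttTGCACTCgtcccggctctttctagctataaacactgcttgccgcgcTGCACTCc
MT1X: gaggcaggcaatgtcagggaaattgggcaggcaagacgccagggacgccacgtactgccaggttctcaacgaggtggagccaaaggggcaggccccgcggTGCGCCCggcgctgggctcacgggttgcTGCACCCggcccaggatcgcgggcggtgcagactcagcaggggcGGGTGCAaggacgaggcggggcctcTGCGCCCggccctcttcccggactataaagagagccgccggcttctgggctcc
The MT2A sequence holds 7 such cores and the MT1X sequence holds 4. Of 27305 promoters of the same length, 24.72% held at least 1 core, 1.56% held 3 or more and 0.12% held 5 or more. Both sequences also hold 2 copies of the GC box GGGCGG, 1 TATAAA and 1 antioxidant response core TGACNNNGC, which were present in 42.31%, 11.13% and 11.03% of promoters. In MT1X 1 core overlaps a GC box. TATAAA starts 29 bases before the MT2A start and 30 bases before the MT1X start. These are matches of letters, and binding was not measured.

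The reads counted on genes ranged from 8735465 to 22121364 a library. Replicate 2 of toyocamycin at 10 h stood apart, with the fewest reads and yet 18654 genes with at least 1 count, against 13434 to 16549 in the other libraries. Results at 10 h are therefore given with it, and for MT2A, MT1E, MT1G and MT1X also without it. Batch 2 held 4 libraries, namely replicate 2 of each arm at 2 h and at 10 h, and the other 13 were batch 1. Among the colon epithelial markers EPCAM, CDH1, KRT8, KRT18 and CDX2 were between 56.6 and 4689 CPM in all DMSO libraries, whereas CDX1, KRT20 and LGALS4 were at or near 0. The 6 markers of fibroblasts, leukocytes and endothelium summed to 0.372 to 10.7 CPM in DMSO libraries and to 0.785 to 21.5 CPM with toyocamycin. CPM are counts scaled to the depth of the library, with a correction by the trimmed mean of M values, so every level below is relative to the rest of the mRNA of its library.

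Of the 7 genes, 5 rose above 10 counts in at least 1 library. MT2A (79 to 8432 counts) and MT1E (65 to 3087 counts) were above 10 counts in 17 of 17 libraries. MT1G was above 10 counts in 8 of 8 DMSO libraries and in 6 of 9 toyocamycin libraries, and MT1F in 8 of 8 and 5 of 9. MT1X passed 10 counts in 6 of 8 DMSO libraries and in 3 of 9 toyocamycin libraries. The 3 toyocamycin libraries of 72 h had only MT2A and MT1E above 10 counts. MT1A and MT1M never passed 10 counts and were too low to be tested. MT1A had 1 count in replicate 2 of toyocamycin at 10 h, 1 count in replicate 2 of toyocamycin at 72 h and 0 in the other 15 libraries. MT1M had 0 counts in the 8 DMSO libraries. With toyocamycin it had 0 counts in 3 libraries, 4 in the 10 h library that stood apart, 2 at 24 h, 2 at 48 h, and 1, 2 and 7 at 72 h.

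Per kilobase of mRNA, the order of levels in DMSO at 72 h was MT2A, MT1E, MT1G, MT1F and MT1X. MT2A, the main human metallothionein in many tissues, stood at 877 ± 77.0 CPM per kb (SD, n = 3). MT1E stood at 149 ± 37.0 CPM per kb (SD, n = 3), or at 263 ± 65.4 CPM per kb with its shorter first exon, and its place in the order was the same with either length. The other 3 levels were 74.0 ± 4.48 for MT1G, 44.6 ± 3.83 for MT1F and 11.5 ± 5.20 CPM per kb for MT1X (SD, n = 3). No neighbours in this order overlapped at 72 h. In DMSO at 2 h, MT1G at 10.8 and 17.1 CPM per kb and MT1F at 11.9 and 12.2 CPM per kb did overlap.

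All 5 testable genes rose in culture with DMSO alone. MT2A was at 68.7 and 52.1 CPM after 2 h, at 48.9 CPM after 10 h, at 186 CPM after 24 h, at 156 CPM after 48 h, and at 317, 362 and 376 CPM after 72 h. MT1G was at 7.03 and 4.42 CPM after 2 h, at 2.99 CPM after 10 h, at 19.3 CPM after 24 h, at 15.5 CPM after 48 h, and at 28.4, 30.5 and 32.1 CPM after 72 h. MT1F, at 5.17 and 5.04 CPM at 2 h and 17.1, 19.7 and 20.1 CPM at 72 h, was the one of the 5 that was lower at 48 h (3.18 CPM) than at 2 h. In each of the 5 genes the DMSO libraries of 72 h were above both DMSO libraries of 2 h, as they were in 19.1% of the 14491 genes tested, while in 21.3% they were below. The rise from 2 to 72 h on the log2 scale was 2.54 ± 0.16 for MT2A, 1.82 ± 0.22 for MT1E, 1.89 ± 0.19 for MT1F, 2.40 ± 0.28 for MT1G and 2.46 ± 0.54 for MT1X (fitted value ± SE). The adjusted p of edgeR's quasi-likelihood test lay between 1.64e-07 for MT2A and 0.0070 for MT1X. The rise of MT1X was 3.88 without replicate 1 of DMSO at 2 h and 1.82 without replicate 2. Of the 14491 genes tested in this comparison, 10.2% were called higher and 11.4% lower, and the median gene differed by -0.03. The 3 libraries of 72 h and replicate 1 of 2 h share batch 1, and MT2A stood at 68.7 CPM in the latter.

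**Figure D1:**
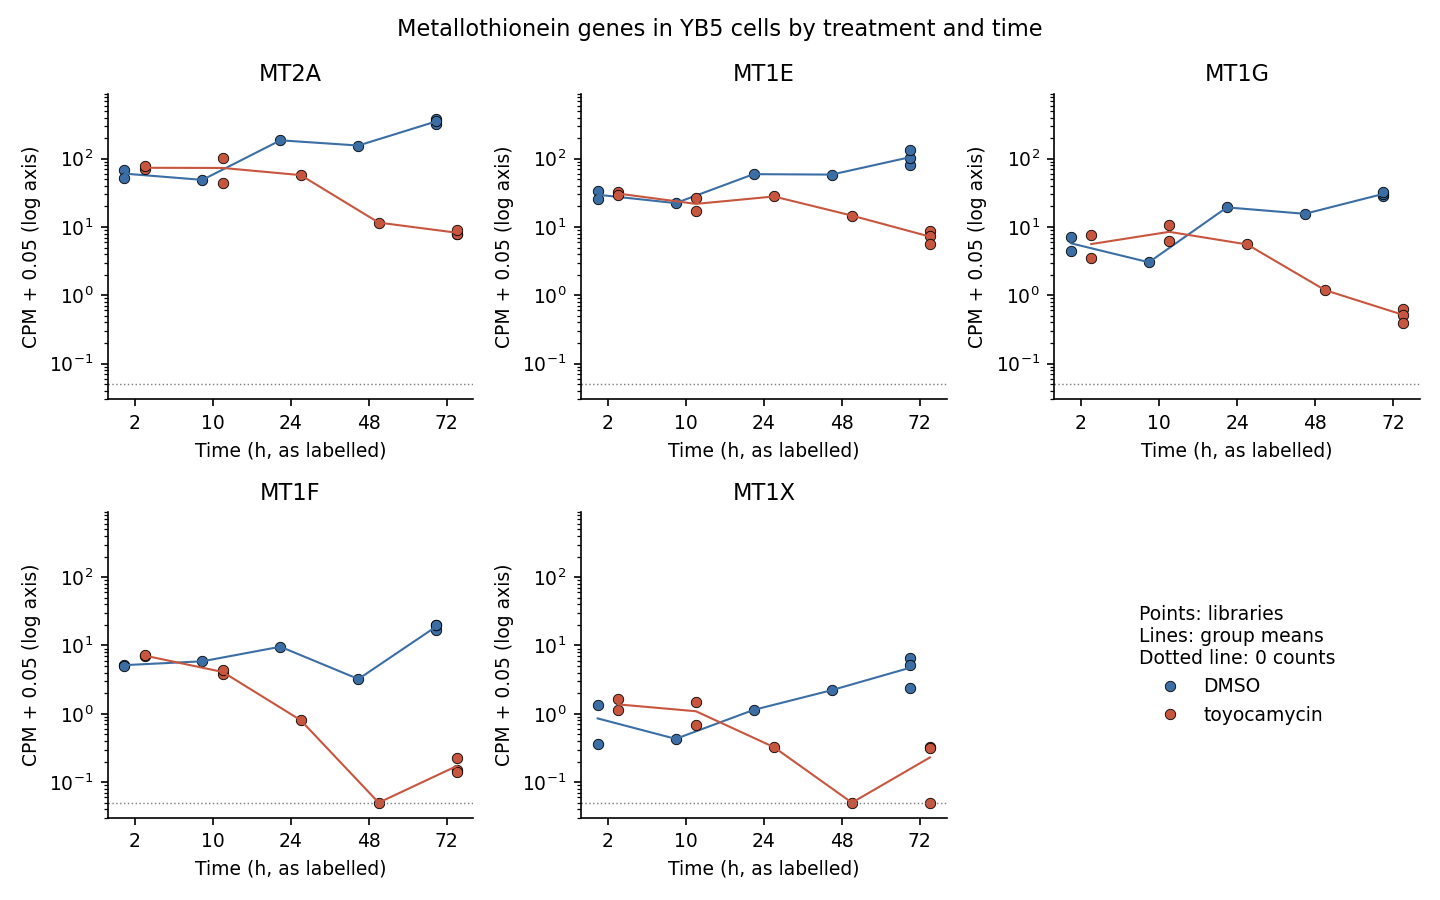
Level of the 5 testable metallothionein genes in each of the 17 libraries, as CPM plus 0.05 on a log axis, against the labelled time in hours, with DMSO in blue and 250 nM toyocamycin in red. Points are libraries, lines join group means and the dotted line marks 0 counts. From 24 h on, the arms part in all 5 genes, and at 72 h MT2A lies at 317 to 376 CPM with DMSO and at 7.76 to 8.95 CPM with toyocamycin.

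After 2 h of toyocamycin, none of the 5 genes passed the test. MT2A was at 69.8 and 77.4 CPM, against 68.7 and 52.1 CPM with DMSO, a log2 fold change of 0.28 ± 0.16 with an adjusted p of 0.477 (edgeR). The other log2 fold changes were 0.06 ± 0.22 for MT1E, 0.47 ± 0.21 for MT1F, -0.03 ± 0.30 for MT1G and 0.64 ± 0.63 for MT1X, with adjusted p between 0.294 and 1.0 (edgeR). At this time 0.518% of the genes tested were called higher and 8.42% lower, so 0 calls among 5 genes is near this background. MT1X was at 2.06 without replicate 1 of DMSO and at 0.0044 without replicate 2, and MT1G was at -0.71 without replicate 1 of toyocamycin. In MT2A, and in MT1F with 6.92 and 7.20 CPM against 5.17 and 5.04 CPM, both toyocamycin libraries were above both DMSO libraries, as they were in 16.7% of the genes tested, while in 20.3% both were below. In the other 3 genes the arms overlapped. Within batch 1 MT2A differed by 0.02 and within batch 2 by 0.57 on the log2 scale, and MT1F by 0.42 and 0.52. Replicate numbers at 2 h are also the batch labels, and with the replicate number as a block in the 2 h libraries alone MT2A was called higher, with an adjusted p of 0.062 (edgeR). That fit called 8.72% of 11848 genes higher.

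At 10 h the genes did not move together. MT1G was at 10.7 and 6.19 CPM with toyocamycin and at 2.99 CPM in the single DMSO library, and it was the one gene of the 5 to be called, with a log2 fold change of 1.52 ± 0.44 and an adjusted p of 0.014 (edgeR). MT2A was at 103 and 43.4 CPM against 48.9 CPM, so the DMSO library lay between the toyocamycin libraries. MT1F had 3.78 and 4.31 CPM against 5.82 CPM, a log2 fold change of -0.53 ± 0.27 with an adjusted p of 0.139 (edgeR). MT1E and MT1X had log2 fold changes of -0.03 ± 0.32 and 1.39 ± 1.06, and that of MT1X was 0.75 without replicate 2 of toyocamycin. In the fit for 10 h 20.4% of 16521 genes were called higher and 24.4% lower, so 1 call among 5 genes is near the background. Without the toyocamycin library that stood apart, the log2 fold change was 1.84 for MT1G and 1.08 for MT2A. This sets 1 toyocamycin library of batch 1 against 1 DMSO library of batch 2, so treatment and batch cannot be told apart in these values. Within batch 2, which holds the library that stood apart and the DMSO library, MT1G differed by 1.05 and MT2A by -0.17 on the log2 scale. MT1G was not called under scaling on the mitochondrially encoded genes, with a log2 fold change of 0.44.

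At 24 h all 5 genes were lower with toyocamycin. There was 1 library in each arm at 24 and at 48 h, so these values have no replicate check and no p-value. MT2A stood at 57.4 CPM against 186 CPM with DMSO, MT1E at 27.9 against 59.3 CPM, and MT1G at 5.50 against 19.3 CPM. MT1F had parted most, with 11 counts against 245, which is 12.5 times lower with a 95% interval of 6.86 to 25.4 (exact, counting error only). MT1X had 4 counts against 28, which is 3.93 times lower with an interval of 1.37 to 15.4. All 5 were past a log2 fold change of 1 in size, with values from -1.07 for MT1E to -3.63 for MT1F, where 27.8% of the genes tested were that much lower and 29.7% that much higher. With DESeq2 size factors MT1E was at -0.92 and so 4 of the 5 were past this size, where 24.9% of the genes were that much lower and 32.1% that much higher. Under scaling on the mitochondrially encoded genes, 71.1% of the genes tested were that much lower at 24 h and 8.98% that much higher.

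At 48 h the gap was wider in every gene whose ratio could be formed. MT2A stood at 11.6 CPM with toyocamycin against 156 CPM with DMSO, 13.2 times lower with a 95% interval of 11.2 to 15.8 (exact, counting error only). MT1G had 14 counts against 323, 13.4 times lower with an interval of 7.88 to 24.8. MT1E, at 14.6 against 58.4 CPM, was 3.92 times lower with an interval of 3.35 to 4.61. MT1F had 0 counts against 66 and MT1X had 0 against 45. With 3 counts as the floor of a library, MT1F was at least 12.8-fold lower and MT1X at least 8.72-fold lower. The background past a log2 fold change of 1 was 29.9% lower and 38.1% higher.

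At 72 h, with 3 libraries an arm, the fall passed the test in all 5 genes. MT2A was at 7.76, 7.88 and 8.95 CPM with toyocamycin and at 317, 362 and 376 CPM with DMSO, a log2 fold change of -5.39 ± 0.17 with an adjusted p of 6.39e-13 (edgeR). MT1E was at 8.65, 7.23 and 5.65 CPM against 80.9, 101 and 132 CPM, a log2 fold change of -3.84 ± 0.21 with an adjusted p of 1.52e-10 (edgeR). MT1G was at 0.590, 0.463 and 0.348 CPM against 28.4, 30.5 and 32.1 CPM, a log2 fold change of -5.98 ± 0.36 with an adjusted p of 3.76e-10 (edgeR). In these 3 genes the lowest DMSO library lay far above the highest toyocamycin library. MT1F was nearly lost, with 1, 1 and 2 counts against 345, 432 and 460, a log2 fold change of -7.16 ± 0.31 with an adjusted p of 1.09e-11 (edgeR). From the summed counts MT1F was 151 times lower, with a 95% interval of 58.8 to 555 (exact, counting error only). This interval is wider than the error of 0.31 beside the fitted value implies, so that error is too small for so few counts. MT1X had 0, 3 and 3 counts against 131, 110 and 55, a log2 fold change of -4.57 ± 0.69 with an adjusted p of 1.56e-05 (edgeR). The toyocamycin libraries were below the DMSO libraries in each of the 5 genes, as they were in 41.8% of the genes tested, while in 45.8% they were above.

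At this time 41.9% of the genes tested were called lower and 47.0% higher, so the call alone sets the 5 genes little apart, and they are described by the size of change, whose median over all genes tested was 1.93 on the log2 scale. Among 14491 genes ordered from the largest fall, MT1F was at rank 12, MT1G at 49, MT2A at 111, MT1X at 306 and MT1E at 661. In bulk RNA, less of an mRNA in each cell and fewer cells that hold it cannot be told apart. Of the 9 colon markers, 7 were tested at 72 h, of which 5 were called lower and 2 higher. CDH1 (-3.47), EPCAM (-1.38), KRT8 (-3.97), KRT18 (-5.09) and VIL1 (-2.84) had negative log2 fold changes, whereas CDX2 (0.61) and LGALS4 (6.66) had positive ones, of which that of CDX2 changed sign under mitochondrial scaling and was not called with library size alone. The 9 levels summed to 527 to 560 CPM with toyocamycin and to 5807 to 6681 CPM with DMSO, and the most abundant of them, KRT8, reached 4689 CPM. The 6 markers of other cells, of which 4 were called higher and 0 lower, summed to 3.44 to 21.5 CPM against 0.372 to 1.19 CPM. Their part in the result was not tested.

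The DMSO libraries of 72 h enter both the rise in culture and the fall at 72 h, so the late toyocamycin libraries were also set against DMSO at 2 h, a comparison chosen after the data had been seen. All 5 genes were lower there too. MT2A had a log2 fold change of -2.85 ± 0.16, MT1E of -2.02 ± 0.22, MT1F of -5.27 ± 0.37, MT1G of -3.59 ± 0.42 and MT1X of -2.11 ± 0.90. The adjusted p ran from 2.90e-10 for MT2A to 0.040 for MT1X (edgeR), and 41.6% of the genes tested were called lower in this comparison. The late level with toyocamycin was thus below the early level with DMSO, and the gap at 72 h held both a rise with DMSO and a fall with toyocamycin.

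The effect at 72 h differed from that at 2 h in all 5 genes. The difference of the effects on the log2 scale was -5.67 ± 0.23 for MT2A, -3.90 ± 0.31 for MT1E, -7.63 ± 0.41 for MT1F, -5.96 ± 0.50 for MT1G and -5.22 ± 0.98 for MT1X. That of MT1X was -6.63 without replicate 1 of DMSO at 2 h and -4.57 without replicate 2, and that of MT1G was -5.28 without replicate 1 of toyocamycin at 2 h. The adjusted p lay between 5.37e-11 for MT2A and 2.03e-04 for MT1X (edgeR), where 38.1% of the genes tested were called lower and 38.0% higher.

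**Figure D2:**
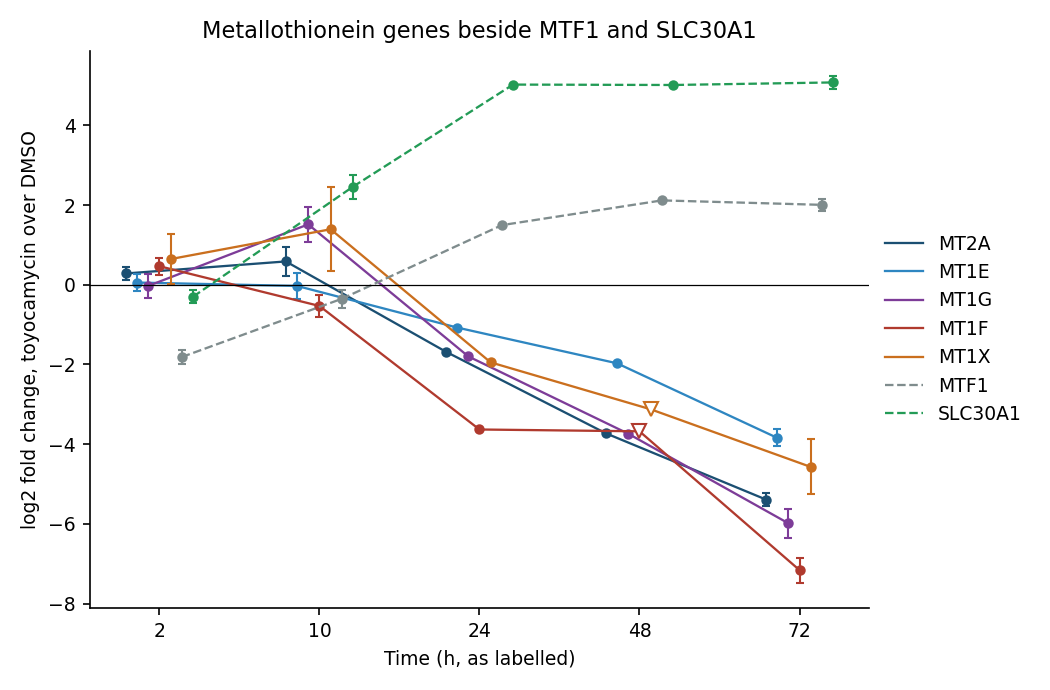
Log2 fold change of toyocamycin over DMSO against the labelled time in hours for the 5 testable metallothionein genes (solid lines) and for MTF1 and SLC30A1 (dashed lines). Bars are standard errors at the times with replicates, and open triangles mark libraries with 0 counts, drawn at the bound set by 3 counts. The metallothionein genes end between -3.84 and -7.16, whereas MTF1 ends at 2.01 and SLC30A1 at 5.08.

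The shares of MT2A and MT1E within the family are given as a description. Of the counts on the 7 genes, MT2A gave 59.4% and 59.5% in DMSO at 2 h and 66.0% to 70.6% in DMSO at 72 h. With toyocamycin it gave 42.0% at 48 h and 45.1%, 48.6% and 55.98% at 72 h. MT1E moved the other way, from 18.0%, 19.0% and 24.2% with DMSO to 50.3%, 44.6% and 35.3% with toyocamycin at 72 h, and its share of 53.3% in toyocamycin at 48 h was the highest of the 17 libraries. The groups of 72 h did not overlap for either gene. With 3 libraries against 3, the exact permutation test gave a two-sided p of 0.1 for both, which is the smallest it can give. A p under 0.1 was out of its reach, so it cannot decide whether the shares differ. Both shares are parts of the same sum, so they are not separate results. In sum the 7 genes had 450 to 549 CPM with DMSO and 15.99 to 17.2 CPM with toyocamycin at 72 h. All 5 testable members were lower with toyocamycin at 72 h, and MT2A and MT1E together held most of the counts in every library.

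**Figure D3:**
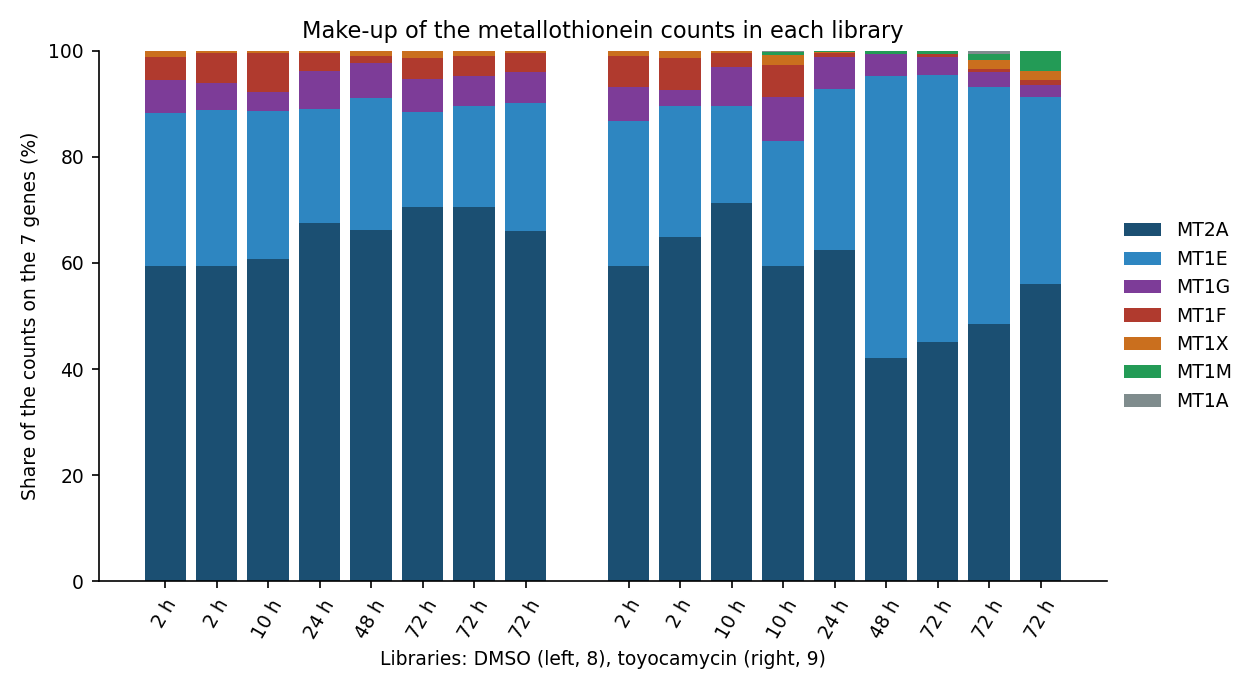
Share of the counts on the 7 metallothionein genes, in percent, that fell on each gene, with 1 stacked bar for each of the 8 DMSO libraries (left) and 9 toyocamycin libraries (right), labelled by time. The MT1E share is 35.3% to 53.3% in the toyocamycin libraries of 48 and 72 h and 18.0% to 29.4% with DMSO.

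Of 13 further family members that were looked for, including pseudogenes, 4 were in the count table. MT4, a form known from squamous epithelium, had 30, 30 and 49 counts in DMSO at 72 h and 0 counts in the 3 toyocamycin libraries, which is at least 5.91-fold lower with 3 counts as the floor of each library. It was called lower, with an adjusted p of 7.50e-06 (edgeR). MT4 overlaps BBS2, a ciliary gene on the opposite strand that was itself called lower, with a log2 fold change of -2.49 ± 0.17. The strand setting of the counting is not given in the sources used here, so reads of the 2 genes cannot be told apart. MT3, a brain form, had 12 counts in the 10 h library that stood apart and 0 elsewhere. MT1H had 3 counts in 1 DMSO library of 2 h, and MT1HL1 had 1 count in each of 2 toyocamycin libraries of 72 h.

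MTF1 and SLC30A1 were both called higher at 72 h. At 24 h, with 1 library an arm, the log2 fold change of MTF1 was positive, but -0.78 under scaling on the mitochondrially encoded genes. At 48 h it was 2.12, and 0.27 under that scaling. MTF1 was at 49.3 and 36.5 CPM in DMSO and at 10.8 and 13.7 CPM with toyocamycin at 2 h, a log2 fold change of -1.81 ± 0.18 with an adjusted p of 2.57e-05 (edgeR). At 72 h it was at 110.5 to 124 CPM against 27.9 to 31.5 CPM, a log2 fold change of 2.01 ± 0.14 with an adjusted p of 3.00e-09 (edgeR). The mRNA of MTF1 was thus lower at 2 h, when no metallothionein mRNA was called, and higher at 72 h, when 5 were called lower. The MTF1 protein and its activity were not measured. SLC30A1, the zinc exporter, was at 33.2 to 42.9 CPM with toyocamycin at 2 h against 42.7 to 51.1 CPM, with a log2 fold change of -0.30 ± 0.17 that did not pass the test. It rose at 10 h (2.46 ± 0.30, adjusted p = 1.76e-05, edgeR), stood at 1585 CPM against 49.2 CPM at 24 h and at 1623 CPM against 51.2 CPM at 48 h, and reached 1897 to 2070 CPM against 57.4 to 65.5 CPM at 72 h. The log2 fold change of SLC30A1 at 72 h was 5.08 ± 0.16 with an adjusted p of 7.46e-13 (edgeR).

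Zinc handling genes went both ways, as genes at large did. Of 25 such genes, counted with MTF1 and the SLC30 exporters and SLC39 importers, 22 were tested. At 72 h 9 were called higher and 9 lower, near the 47.0% and 41.9% of all genes tested. Their median log2 fold change was 0.20. Under scaling on the mitochondrially encoded genes 5 were higher and 12 lower. SLC30A3, an exporter of synaptic vesicles, had 0 counts in DMSO and 12 in sum with toyocamycin at 72 h, at least 2.73-fold higher. SLC39A2 rose from 4 to 53 counts in sum and SLC39A5 from 12 to 105, both importers of the plasma membrane, which is 27.1-fold (9.99 to 103) and 17.9-fold higher (9.84 to 35.8, exact 95% intervals for counting error). At 2 h MTF1 was the one gene of the list that was called.

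Of 14 tested copper handling genes, 5 were called higher and 6 lower at 72 h, near the 47.0% and 41.9% of all genes tested. Their median was -0.16. SCO2 (5.38 ± 0.32), a copper chaperone of cytochrome c oxidase, and STEAP4 (5.28 ± 0.77), a metalloreductase, rose. So did SCO1, COX11 and ATP7A, named after their values were seen, of which COX11 and ATP7A changed sign under mitochondrial scaling. ATP7B, a copper exporter, fell by 4.76 ± 0.24 and STEAP3, a metalloreductase of endosomes, fell by 3.67 ± 0.15 on the log2 scale. With library size alone 3 were higher and 9 lower. Under scaling on the mitochondrially encoded genes 2 were higher, SCO2 and STEAP4, and 9 lower, so SCO1 was not called higher there. STEAP4 rested on 2 counts in sum with DMSO against 46 with toyocamycin.

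Of 12 genes of the metal and oxidant response, 6 were called higher and 6 lower at 72 h, near the 47.0% and 41.9% of all genes tested. Their median was -0.13. HMOX1, the inducible heme oxygenase and a marker of oxidant and metal stress, was at 111 to 124 CPM with toyocamycin and at 4.16 to 5.57 CPM with DMSO, a log2 fold change of 4.70 ± 0.18 with an adjusted p of 3.33e-12 (edgeR). SRXN1, which repairs oxidised peroxiredoxin, rose by 2.44 ± 0.32. NQO1, a quinone reductase, fell by 4.19 ± 0.17 and DNAJB1, a heat shock cochaperone, fell by 3.24 ± 0.12 on the log2 scale. Under scaling on the mitochondrially encoded genes 4 were higher and 6 lower.

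Of 8 genes of the glucocorticoid response, 6 were tested at 72 h. NR3C1, the glucocorticoid receptor, and ZBTB16 were too low to be tested at that time. Of the 6, 5 were called higher and FKBP5 was called lower, beside 47.0% and 41.9% of all genes tested. PER1, a clock gene that glucocorticoids induce, was lower at 2 h (log2 fold change -2.49 ± 0.22) and higher at 72 h (5.66 ± 0.20). KLF9, a transcription factor, rose by 3.48 ± 0.16 and TSC22D3, known as GILZ, by 2.04 ± 0.27. FKBP5, a cochaperone of the receptor, fell by 3.74 ± 0.20 on the log2 scale. The other 2 that were higher, SGK1 and DUSP1, are named after their values were seen, and both changed sign under mitochondrial scaling. With library size alone 3 were higher and 2 lower. At 2 h SGK1 (-1.30 ± 0.14) and DUSP1 (-1.93 ± 0.25) were lower, as PER1 was. These 3 of the 6 were called lower at 2 h and 0 higher, beside 8.42% and 0.518% of all genes tested. Under mitochondrial scaling 2 were called lower at 2 h.

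Of 13 coding genes within 500 kb of a metallothionein gene, 11 were tested. At 72 h 2 of these were called higher and 7 lower, beside 47.0% and 41.9% of all genes tested. Their median log2 fold change was -0.97. Whether so few genes differed from all genes was not tested. NLRC5, a regulator of MHC class I genes, had a log2 fold change of -4.40 ± 0.27, CPNE2, a calcium-binding copine, of -3.72 ± 0.19, and NUP93, a nuclear pore subunit, of -2.60 ± 0.14. The fall of NLRC5 was larger than that of MT1E (-3.84 ± 0.21) and close to that of MT1X (-4.57 ± 0.69). MT2A, MT1F and MT1G fell further than these 3 neighbours, and a test of that difference was not run. CETP, which transfers cholesteryl esters, had 0 counts with DMSO and 21 in sum with toyocamycin at 72 h, at least 4.78-fold higher. OGFOD1, named after its value was seen, was the other gene called higher, and it changed sign under mitochondrial scaling. At 2 h 1 neighbour was called, HERPUD1, a gene of the endoplasmic reticulum stress response also named after its value was seen, with a log2 fold change of -2.27 ± 0.17. Under scaling on the mitochondrially encoded genes 1 neighbour was higher and 8 were lower at 72 h.

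**Figure D4:**
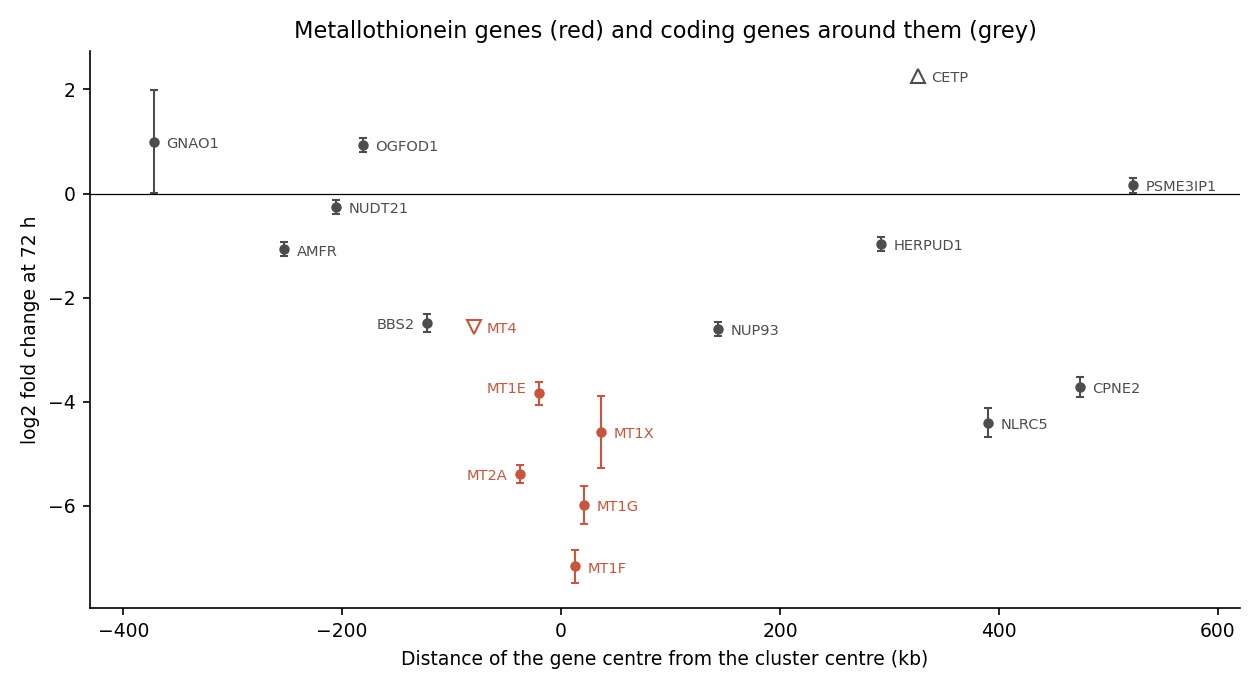
Log2 fold change of toyocamycin over DMSO at 72 h against the distance in kb between the centre of a gene and the centre of the cluster, for the tested metallothionein genes (red) and the coding genes around them (grey). Bars are standard errors, and open triangles mark genes with 0 counts in 1 arm, drawn at the bound set by 3 counts a library. The 5 metallothionein genes of the cluster lie between -3.84 and -7.16, and NLRC5 at -4.40 is the lowest of the grey genes.

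Other short genes mostly rose at 72 h. Of the 1344 coding genes that span at most 3 kb, 660 were tested. At 72 h 443 of these were called higher and 148 lower, beside 47.0% and 41.9% of all genes tested. Their median log2 fold change was 2.10. The median of all genes was 0.18 and that of the 5 metallothionein genes, which are themselves in this class, was -5.39. Under scaling on the mitochondrially encoded genes the median of the short genes was 0.998 and that of the metallothionein genes -6.45. At 2 h the short genes had a median of 0.07, with 7 called higher and 38 lower.

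Across the 17 libraries, log2 CPM of the 5 testable genes correlated in all 10 pairs, with Pearson's r from 0.794 for MT1E with MT1X to 0.979 for MT2A with MT1G. In the 8 DMSO libraries alone r ran from 0.641 for MT1F with MT1X to 0.985 for MT2A with MT1G. The libraries share treatment and time, so these r describe the course and carry no p. Among 7807 genes with an average log2 CPM of at least 4, those most like MT2A in log2 CPM over the 17 libraries included ENO2 (r = 0.968), ERO1A (r = 0.963), ACTB (r = 0.963) and FAM162A (r = 0.954). ENO2, the neuronal enolase, ran from 58.7 and 41.6 CPM in DMSO at 2 h to 251, 289 and 278 CPM in DMSO at 72 h, and was at 7.18, 9.73 and 14.3 CPM with toyocamycin at 72 h. ACTB, the cytoplasmic actin, went from 3756 and 3244 CPM to 6998, 7493 and 7173 CPM with DMSO, and was at 1551, 1772 and 1744 CPM with toyocamycin at 72 h. Both genes rose with time in DMSO and were lowest in the late toyocamycin libraries, as MT2A was.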

How the data were processed

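Libraries of polyA RNA from YB5 cells were grouped by treatment (DMSO or 250 nM toyocamycin) and time, per the deposited labels. The authors aligned reads to GRCh38 with STAR 2.7.5a, counted reads per gene and deposited whole-number counts of 19141 genes, which were used as raw counts without normalization. Depth was 8735465 to 22121364 counts per library. 1 further column of the table matches no sample and was not used here. The authors also deposited their own edgeR comparisons (log2 fold changes and p-values), which were not used.

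The members and gene lists were chosen with earlier results of these data known. Gene symbols came from a later GENCODE annotation of the same build, which matched 19080 gene IDs.

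Genes were filtered with filterByExpr, scaled with TMM and tested with the quasi-likelihood test of edgeR 4.0.16, in the form of the authors' version, with limma 3.58.1 in R 4.3.3. A Benjamini-Hochberg adjusted p under 0.1, taken over all genes tested, was called. The 14 libraries without those of 10 h gave the results at 2, 24, 48 and 72 h, the effect at 72 h minus that at 2 h, and DMSO at 72 h against 2 h. All 17 libraries gave 10 h, where the lone DMSO library was assumed to vary like the other groups. At 24 and 48 h, with 1 library an arm, only values are given. Errors beside fold changes are standard errors, taken as the size of the log2 fold change over the square root of the F of its test. Where an arm has few counts they can be too small. CPM were scaled over the 17 libraries, and correlations used log2 CPM with a prior count of 2. Exact 95% intervals and floors of 3 counts cover counting error alone, as PCR copies of a molecule could not be removed by molecular identifiers. Intervals, tables and figures were made with Python 3.11.15 (scipy 1.17.1, pandas 2.3.3, numpy 2.4.6, matplotlib 3.10.9). The fits were also run on simulated data in which few genes changed, which cannot show how they perform where most genes change, as at 72 h.

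Genes named were the 7 members, all other counted family members, MTF1, SLC30A1, up to 4 genes with the largest change among those called at 2 or 72 h from each list, and the 5 genes most like MT2A, of which 1 is not reported here. Others are marked as named after their values were seen. Alternatives were DESeq2 size factors, library size alone, scaling on mitochondrially encoded genes, no filter, at least 10 counts in every library, other sets of libraries, batch as a term, the edgeR 4 form of the test, the DESeq2 1.42.0 Wald test, an adjusted p under 0.05, a log2 fold change of 1.5, the replicate number as a block, leaving out each library and, chosen after the data had been seen, DMSO at 2 h as the control of the late libraries. The replicate numbers were checked for pairing by the correlation of the deviations from group means. At 2 h, where the number is also the batch label, it was 0.746 for same-numbered libraries.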

Additional observations from a re-analysis of the deposited data

Results flagged for a closer look

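In 5 of the metallothionein genes the effect of toyocamycin differed between 2 and 72 h, tested as the difference of the log2 fold changes with edgeR. It was -5.67 for MT2A, -3.90 for MT1E, -7.63 for MT1F, -5.96 for MT1G and -5.22 for MT1X. Without replicate 1 or 2 of DMSO at 2 h that of MT1X was -6.63 or -4.57. For MT4 it was -8.02, a fitted value that rests on 0 counts in the late toyocamycin libraries and is no bound.

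The same test also called genes of the other lists. Apart from MTF1 and SLC30A1, these had been picked for large changes at 2 or 72 h in the same data, so their calls are no separate result. Of all genes tested, 38.0% were called higher and 38.1% lower. Among the zinc genes the test gave 3.82 for MTF1, 5.38 for SLC30A1, 6.74 for SLC39A2 and 5.22 for SLC39A5. The value of SLC39A5 was 9.04 without replicate 1 of toyocamycin at 2 h and 4.45 without replicate 2. The call of SLC39A2 was lost without replicate 1 of DMSO at 2 h (4.61) and without replicate 1 of toyocamycin at 2 h (6.71). Among the copper genes it gave 4.35 for SCO2, 6.09 for STEAP4, -4.95 for ATP7B and -3.76 for STEAP3, and the call of STEAP4 was lost without replicate 2 of DMSO at 2 h (3.13). STEAP4 was at 7.11 without replicate 1 of DMSO at 2 h, and at 5.08 and 8.25 without replicates 1 and 2 of toyocamycin at 2 h.

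In the list of the oxidant response it was 5.01 for HMOX1, -4.43 for NQO1, -2.003 for DNAJB1 and 1.89 for SRXN1. In the glucocorticoid list it was 8.15 for PER1, -3.57 for FKBP5, 3.71 for KLF9 and 2.15 for TSC22D3. SRXN1 (0.95) and TSC22D3 (1.37) were not called under scaling on the mitochondrially encoded genes. Of the neighbours of the cluster it was 7.12 for CETP, -4.35 for NLRC5, -3.99 for CPNE2 and -2.61 for NUP93. CETP was at 10.02 without replicate 1 of toyocamycin at 2 h, at 6.40 without replicate 2, and at 6.47 without replicate 2 of DMSO at 2 h, and these are fitted values that rest on 0 counts with DMSO at 72 h.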

How the results depend on the processing

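The falls at 72 h, the differences between 72 and 2 h and the rises with DMSO kept their direction and their call in all 5 genes under every alternative that tested them. At 72 h the log2 fold change of MT2A lay between -6.45 and -2.85, and that of MT1X between -5.77 and -2.11, the values nearest 0 being those against DMSO at 2 h. The median of all genes at 72 h was 0.18 as reported, 0.50 with DESeq2 size factors, -0.42 with library size alone and -0.89 with mitochondrial scaling, which uses the mitochondrially encoded genes. When at least 10 counts were required in every library, only MT2A and MT1E were tested, and 2 genes were lower at 24, 48 and 72 h. With no filter on low counts 1 gene, MT1M, was higher at 24, 48 and 72 h. This rests on 2, 2 and 10 counts in sum with toyocamycin against 0 with DMSO, and at 24 and 48 h on fitted values without a test.

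At 2 h the replicate block gave 1 higher gene in place of 0. At 72 h same-numbered libraries did not deviate together (r of -0.418, 0.292 and -0.345), and the block left the count of 5 lower genes. MT1E at 2 h was -0.0054 with library size alone and -0.15 with mitochondrial scaling, and MT1G at 2 h was 0.00019 with DESeq2 size factors. Without single libraries MT1E at 2 h ran from -0.12 to 0.26 and MT1G from -0.71 to 0.40.

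At 10 h the genes higher were 2 with DESeq2 size factors and with the DESeq2 Wald test, and 0 with mitochondrial scaling. The genes lower were 1 with library size alone, with mitochondrial scaling and with the edgeR 4 test, in place of 0, and this was MT1F each time. MT1E at 10 h was 0.17 with DESeq2 size factors, 0.17 with the Wald test and 0.089 when 10 counts were required in every library. MT2A at 10 h was -0.43 with mitochondrial scaling. Without single toyocamycin libraries MT2A ran from -0.17 to 1.08 and MT1E from -0.38 to 0.25. The cause of these changes was not tested. MT1A and MT1M had too few counts at this depth to pass the filter.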
